A study of Mus musculus with 8 samples.

Results

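The transcripts of 10 genes of MHC class I antigen presentation were followed in myeloid cells of lupus-prone sanroque mice. They are H2-K1, H2-D1, H2-T23, B2m, Tap1, Tap2, Tapbp, Psmb8, Psmb9 and Nlrc5, chosen by their gene symbols from the 54188 genes of the count table. All 10 passed the filter on low counts, which left 17650 genes for testing, and the lowest count of any of them in any library was 3000.

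Class I molecules show fragments of the cell's own proteins to CD8+ T cells. The proteasome cuts proteins into peptides, the transporter made of Tap1 and Tap2 carries them into the endoplasmic reticulum, and tapasin holds an empty class I molecule at the transporter until a peptide fits. In cells exposed to interferons, the subunits Psmb8, Psmb9 and Psmb10 take the place of Psmb5, Psmb6 and Psmb7 in newly made proteasomes (the immunoproteasome), and Nlrc5 acts at the promoters of the class I genes.

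All 8 libraries came from homozygous Roquin san/san mice on a C57BL/6 background at 20 weeks of age, labelled female. The cells were CD11b+Gr-1hi (labelled G-MDSC, granulocytic myeloid-derived suppressor cells) or CD11b+Gr-1lo (labelled M-MDSC, the monocytic kind), sorted from the spleen (SP) or from bone marrow (BM). Each group had 2 libraries, named here by their numbers in the labels: 5 and 6 for SP Gr-1hi, 7 and 8 for SP Gr-1lo, 9 and 10 for BM Gr-1hi, 11 and 12 for BM Gr-1lo. The study's methods call the 2 libraries of a group independent biological replicates, no source used here says which libraries share a mouse, and wild-type cells were not analysed here, so every value below is a comparison within sanroque mice.

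Total counts ran from 33453580 to 68316154 per library. The labelled subsets were checked by markers: the summed level of 10 neutrophil genes (S100a8, S100a9, Ngp and others) was 78715 to 168256 CPM (counts scaled to library size) in Gr-1hi and 4945 to 11979 CPM in Gr-1lo libraries, and that of 9 monocyte genes (Ly6c2, Ccr2, Fn1 and others) was 1074 to 1769 CPM in Gr-1hi and 7202 to 10588 CPM in Gr-1lo. The libraries did not all match the label female. Counts of Xist, the RNA of the inactive X chromosome, were 12032 in library 5, 9898 in library 7 and no more than 5 elsewhere, whereas the Y-linked Ddx3y was at 0 CPM in library 5 and at 33.7 to 82.6 CPM in the other 7, library 7 included. Some results are therefore also given without libraries 5 and 7.

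The regulatory sequence of the class I genes is shown because the members described below moved largely together. RefSeq promoter windows (GRCm38.p6, 250 bases before the transcription start) were matched by symbol for 8 of the 10 genes, not for Tap2 and Nlrc5. The annotations place the starts differently: by GENCODE M21 all 250 bases of the H2-D1 window and 154 of the 250 of H2-T23 lie in annotated exons, against 0 for H2-K1 and 1 for B2m. The H2-D1 and H2-T23 stretches below lie inside their genes, which start at bases 35262730 (plus strand) and 36032855 (minus strand) there. H2-K1 and H2-D1 encode the classical heavy chains K and D. Their windows share an identical run of 47 bases, and the end of that run overlaps a stretch of 29 bases that differs between the genes by 1 substitution, A17T (H2-K1 base, position from the 5′ end of the stretch, H2-D1 base). In the stretches below, capitals mark GGGATTCCC (an NF-kB type motif, in 0.301% of 32851 promoter windows) and, on the other strand, GAANNGAAA (an interferon-stimulated response element type, in 6.31%).
H2-K1, chr17:34000429-34000457, minus strand: GGGATTCCCcatctccacagTTTCACTTC
H2-D1, chr17:35262924-35262952, plus strand: GGGATTCCCcatctcctcagTTTCACTTC

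B2m encodes beta-2 microglobulin, the light chain of every class I molecule, and H2-T23 the heavy chain of Qa-1, which binds receptors of NK and T cells. Their windows hold another motif of the interferon-stimulated response element type, GAAA and again GAAA with 2 bases of any kind between them (capitals, either strand), which 2.98% of all windows hold. The shorter GAANNGAAA is not contained in it and had 0 matches in both windows. The motifs were searched on both strands, and a match is only a description of the letters.
B2m, chr2:122147538-122147567, plus strand: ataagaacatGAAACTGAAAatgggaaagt
H2-T23, chr17:36032806-36032835, minus strand: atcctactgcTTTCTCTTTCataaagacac

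The whole windows of H2-K1 and B2m are given with the same capitals, since they show how the motifs lie relative to the start, which follows the last base of H2-K1 and lies 1 base beyond the last of B2m.
H2-K1, chr17:34000348-34000597, minus strand: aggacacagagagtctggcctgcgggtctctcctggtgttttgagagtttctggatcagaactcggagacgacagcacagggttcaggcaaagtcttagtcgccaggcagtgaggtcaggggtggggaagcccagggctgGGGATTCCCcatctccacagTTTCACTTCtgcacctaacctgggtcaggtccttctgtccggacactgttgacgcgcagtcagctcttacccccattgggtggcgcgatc
B2m, chr2:122147437-122147685, plus strand: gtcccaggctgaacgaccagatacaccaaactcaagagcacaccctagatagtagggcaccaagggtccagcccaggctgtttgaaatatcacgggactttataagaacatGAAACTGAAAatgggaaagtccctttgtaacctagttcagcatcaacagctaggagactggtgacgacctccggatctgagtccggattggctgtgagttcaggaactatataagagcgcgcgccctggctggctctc

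Of the other 4 windows, that of Psmb8 held TTCNNNGAA (a STAT type motif, in 7.02% of windows), 97 bases before the start, and was the 1 window of the 8 without CCAAT, which 33.8% of all windows hold. TGACG was present for 5 of 8 genes (H2-K1, H2-D1, B2m, Tap1 and Psmb9) and in 17.8% of all windows. Psmb9 and Tap1 are transcribed away from each other from starts with 225 bases between them in RefSeq (chr17:34187331-34187555), all of them in exons by GENCODE M21. By GENCODE M21 on GRCm38, 8 of the 10 genes lie on chromosome 17, between bases 33915899 (the start of Tapbp) and 36032855 (that of H2-T23), B2m on chromosome 2 (122147686 to 122153083) and Nlrc5 on chromosome 8 (94434356 to 94527272).

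Per length, B2m was the most abundant of the 10 transcripts in every library, at 4500 to 7572 TPM (counts scaled by gene length and library). H2-D1 followed at 1695 to 4735 TPM, H2-K1 at 804 to 1848 TPM and H2-T23 at 245 to 594 TPM, in this order in each library. Nlrc5 was the lowest of the 10 in each library, at 42.9 to 129.7 TPM. Between them lay Tap1, Tap2, Tapbp, Psmb8 and Psmb9, and the position of Psmb8 moved most, from the fifth to the ninth of the 10.

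**Figure D1:**
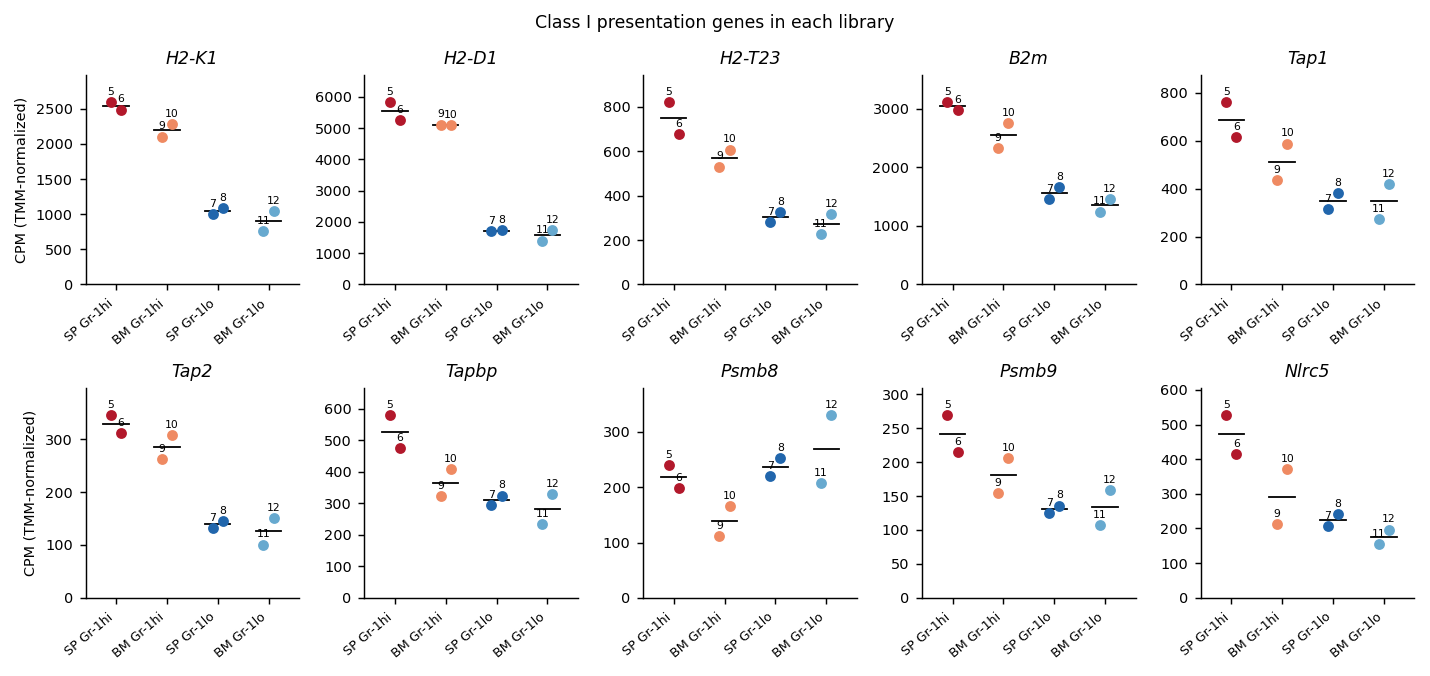
Level of each of the 10 genes in each library, in TMM-normalized CPM on a linear axis from 0 (points, with the library number; bars, mean of the 2 libraries). For 9 genes both SP Gr-1hi libraries lie above all 4 Gr-1lo libraries. Psmb8 is the exception, with BM Gr-1hi at 112 and 166 CPM below the Gr-1lo libraries. Of all genes tested, 33.6% passed as higher in SP Gr-1hi than in SP Gr-1lo. The share of all genes with the order seen for the 9 is not given here.

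The first question was whether the 2 subsets differ in class I transcripts. In both tissues most of the 10 genes were higher in Gr-1hi than in Gr-1lo cells. In BM, 6 of 10 were higher at an adjusted p of at most 0.05 (H2-D1, H2-K1, Tap2, H2-T23, B2m and Nlrc5), Psmb8 was lower, and Tap1, Tapbp and Psmb9 did not pass. In SP, 9 of 10 were higher and Psmb8 did not pass. Most genes differ between these subsets: 75.7% of all genes tested passed in BM (34.5% higher, 41.2% lower), and 71.4% in SP (33.6% higher, 37.8% lower). The median log2 fold change (FC) of the 10 was 0.82 in BM and 1.02 in SP, against -0.17 and -0.09 over all genes tested. With an FC of at least 2 added, 4 members were higher in BM and 5 in SP, where 24.2% and 22.3% of all genes met both criteria in that direction. In bulk RNA, fewer cells of a type and less RNA per cell cannot be told apart.

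Markers of other cells moved with this comparison too. In SP, 10 of 10 B cell, 11 of 12 T cell, 7 of 9 splenic macrophage, 4 of 7 dendritic cell, 4 of 8 NK cell, 2 of 6 plasma cell and 1 of 7 erythroid markers tested were higher in Gr-1hi. In BM the counts were 7 of 10, 6 of 12, 7 of 9, 4 of 7, 3 of 8, 0 of 6 and 4 of 7 in the same order. Markers lower in Gr-1hi were 1 NK cell and 1 plasma cell gene in SP, and in BM 3 plasma cell genes and 1 each of the B cell, macrophage, dendritic cell and NK cell lists. The summed level of the macrophage markers was 798 to 947 CPM in SP Gr-1hi and 502 to 553 in BM Gr-1hi, against 97.9 to 99.8 in SP Gr-1lo and 65.2 to 77.9 in BM Gr-1lo. In Gr-1hi most of this sum was 1 gene, Slc40a1, with means of 751 CPM in SP and 480 in BM. Its means in Gr-1lo were 30.3 and 21.4 CPM. The summed level of the T cell markers was 97.0 to 154 and 7.97 to 11.2 CPM, against 32.2 to 49.8 and about 3. The plasma cell sums were lower in Gr-1hi (101 to 172 and 12.4 to 13.8 CPM, against 189 to 232 and 195 to 231), as were those of NK cells (16.0 to 23.99 and 3.39 to 4.37, against 27.0 to 33.7 and 35.5 to 38.0). Most of these Gr-1lo sums came from 1 gene each. These were Txndc5 (mean 157 CPM in SP and 203 in BM) and Nkg7 (24.2 and 35.8). Nkg7 was the only NK cell marker lower in Gr-1hi in either tissue, and Txndc5 the only plasma cell marker lower in SP. The part of these other cells in the class I values was not tested.

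Of the 10, the classical heavy chain H2-D1 had the largest log2 FC in both tissues. H2-D1 was at 5840 and 5248 CPM in SP Gr-1hi, 5115 and 5094 in BM Gr-1hi, 1704 and 1743 in SP Gr-1lo, and 1407 and 1736 in BM Gr-1lo. The 4 Gr-1hi libraries lay far above the 4 Gr-1lo libraries, and the tissues lay close together. The log2 FC was 1.70 ± 0.12 (SE) in BM (adjusted p = 2.84e-06 by edgeR's quasi-likelihood test) and 1.69 ± 0.12 in SP (adjusted p = 5.23e-06).

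H2-K1 was at 2597 and 2488 CPM in SP Gr-1hi, 2105 and 2278 in BM Gr-1hi, 1005 and 1083 in SP Gr-1lo, and 760 and 1039 in BM Gr-1lo. Again the subsets did not overlap. The log2 FC was 1.28 ± 0.14 in either tissue. H2-K1 over H2-D1, as a ratio of counts within a library, was 0.412 to 0.474 in Gr-1hi and 0.540 to 0.621 in Gr-1lo. The mean log2 difference of this ratio between subsets was -0.40, with a pooled SD of 0.0792 and p = 0.0556 in a two-sided exact permutation test within tissues (36 arrangements), which is the smallest p this design allows, and 0.111 adjusted over 2 comparisons. Between tissues the mean log2 ratio was 0.09 higher in spleen than in bone marrow, with p = 0.222 in the same exact permutation test run within subsets, and 0.222 after adjustment. The 2 genes resemble each other in sequence, so reads that the counting could not place uniquely may have been lost from both.

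H2-T23 was at 821 and 676 CPM in SP Gr-1hi, 530 and 606 in BM Gr-1hi, 279 and 324 in SP Gr-1lo, and 228 and 317 in BM Gr-1lo. All Gr-1hi libraries were above all Gr-1lo libraries, by a log2 FC of 1.31 ± 0.17 in SP and 1.06 ± 0.17 in BM. B2m showed the same order with a smaller difference, at 3115 and 2980 CPM, 2329 and 2758, 1460 and 1666, and 1245 and 1458 for the same groups. Its log2 FC was 0.91 ± 0.13 in BM (adjusted p = 0.000178) and 0.96 ± 0.13 in SP (adjusted p = 0.000157).

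Of the transporter, Tap2 was at 345 and 311 CPM in SP Gr-1hi, 262 and 307 in BM Gr-1hi, 132 and 146 in SP Gr-1lo, and 101 and 151 in BM Gr-1lo. The subsets were well apart, by a log2 FC of 1.24 ± 0.18 in SP and 1.17 ± 0.18 in BM. Its partner Tap1 was at 762 and 614, 437 and 588, 315 and 383, and 274 and 420 CPM in the same order of groups. In BM the lower Gr-1hi library of Tap1, at 437 CPM, was close to the higher Gr-1lo library, at 420 CPM. The log2 FC of Tap1 was 0.98 ± 0.23 in SP (adjusted p = 0.00502), while that of 0.56 ± 0.23 in BM just missed the threshold (adjusted p = 0.0514). The count ratio of Tap2 to Tap1 was 0.453 to 0.600 in Gr-1hi and 0.361 to 0.419 in Gr-1lo libraries. This ratio was chosen after its values were seen.

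Tapbp, which encodes tapasin, was at 580 and 475 CPM in SP Gr-1hi, 323 and 408 in BM Gr-1hi, 294 and 325 in SP Gr-1lo, and 233 and 329 in BM Gr-1lo. The BM groups overlapped (log2 FC 0.38 ± 0.18, adjusted p = 0.0904), and the SP groups did not (log2 FC 0.77 ± 0.18, adjusted p = 0.00534). Nlrc5 was at 527 and 416, 212 and 371, 207 and 243, and 156 and 197 CPM. Libraries 9 and 10 of BM Gr-1hi spread widely for this gene, yet both stayed above BM Gr-1lo, and the log2 FC was 0.73 ± 0.26 in BM (adjusted p = 0.0332) and 1.07 ± 0.26 in SP (adjusted p = 0.00661). On the same strand Tapbp overlaps Zbtb22 over 3422 bases, so its counts are less certain than the others.

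**Figure D2:**
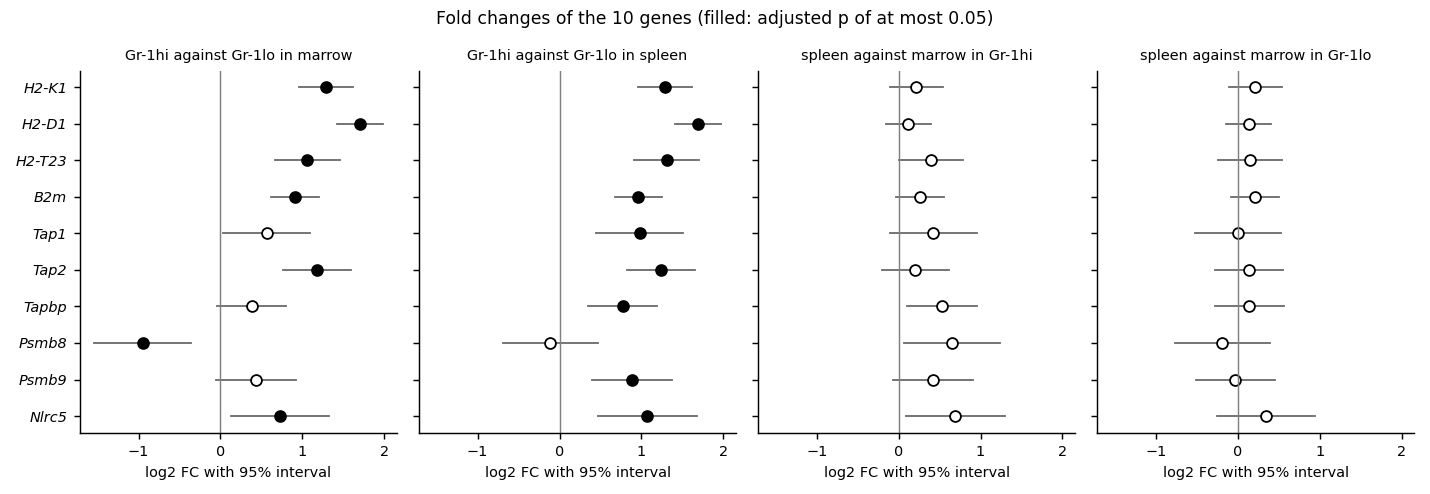
Log2 FC of the 10 genes in 4 comparisons (points; filled at an adjusted p of at most 0.05) with 95% confidence intervals. Between subsets 6 genes are higher and 1 lower in BM and 9 higher in SP, and between tissues none of the 20 points is filled.

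The immunoproteasome subunits differed from one another. Psmb9 was at 269 and 214 CPM in SP Gr-1hi, 155 and 207 in BM Gr-1hi, 125 and 136 in SP Gr-1lo, and 107 and 159 in BM Gr-1lo. Its log2 FC was 0.89 ± 0.21 in SP (adjusted p = 0.00541) and 0.44 ± 0.21 in BM, where the groups overlapped (adjusted p = 0.0898). Psmb8 was at 240 and 198 CPM in SP Gr-1hi, 112 and 166 in BM Gr-1hi, 219 and 253 in SP Gr-1lo, and 208 and 330 in BM Gr-1lo. BM Gr-1hi was below the other 3 groups, with a log2 FC of -0.95 ± 0.25 against BM Gr-1lo (adjusted p = 0.00948), whereas the SP groups overlapped (log2 FC -0.11 ± 0.25, adjusted p = 0.706).

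Psmb10, the third immunoproteasome subunit, was lower in Gr-1hi cells in both tissues (log2 FC -2.18 ± 0.33 in BM and -1.29 ± 0.32 in SP). It was at 47.3 and 45.6 CPM in SP Gr-1hi, 18.4 and 36.8 in BM Gr-1hi, 108 and 120 in SP Gr-1lo, and 99.6 and 151 in BM Gr-1lo. The constitutive subunits that the 3 replace were lower in Gr-1hi too, with log2 FCs in BM and SP of -0.99 and -1.13 for Psmb5, -0.87 and -1.03 for Psmb6, and -0.74 and -0.97 for Psmb7. The subunits of the proteasome activator PA28 did not pass in either tissue (log2 FC -0.38 and -0.23 for Psme1, -0.48 and -0.26 for Psme2), but with total counts alone both were lower in BM (-1.19 and -1.29) and SP (-0.83 and -0.86).

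Within-library count ratios, which no library scaling can alter, put the 3 exchanges side by side. Psmb9 over Psmb6 was 10.5 and 6.43 in SP Gr-1hi, 4.34 and 5.14 in BM Gr-1hi, 2.04 and 2.31 in SP Gr-1lo, and 1.65 and 2.17 in BM Gr-1lo. Every Gr-1hi library was above every Gr-1lo library, by 3.07-fold on average (log2 difference 1.62, pooled SD 0.305, p = 0.0556 in the exact permutation test, 0.167 adjusted over 6 comparisons). Psmb10 over Psmb7 went the other way (log2 difference -0.90, the same p). It was 0.418 and 0.705 in BM Gr-1hi and 1.20 to 1.81 in the other 6 libraries.

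Psmb8 over Psmb5 was 9.86 and 7.56 in SP Gr-1hi and 3.59 to 5.44 in the other 6 libraries, which overlapped across groups. Its mean log2 difference was 0.54 between subsets (exact permutation p = 0.167) and 0.43 between tissues (p = 0.222), with a pooled SD of 0.280. Between tissues the log2 difference was 0.50 for Psmb9 over Psmb6 (exact permutation p = 0.111) and 0.65 for Psmb10 over Psmb7 (p = 0.167), and adjusted p over the 6 comparisons was 0.2 to 0.222 for these 4. No p below 0.0556 was possible.

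A pair of further ratios, chosen after their values were seen, is given without a test. Psmb9 over Tap1, the divergently transcribed pair, lay between 0.349 and 0.398 in all 8 libraries, while the CPM of Psmb9 ranged from 107 to 269. Psmb8 over Psmb9 was 0.726 to 0.924 in the Gr-1hi and 1.75 to 2.07 in the Gr-1lo libraries. The first ratio hardly moved, and the second separated the subsets with a wide gap.

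**Figure D3:**
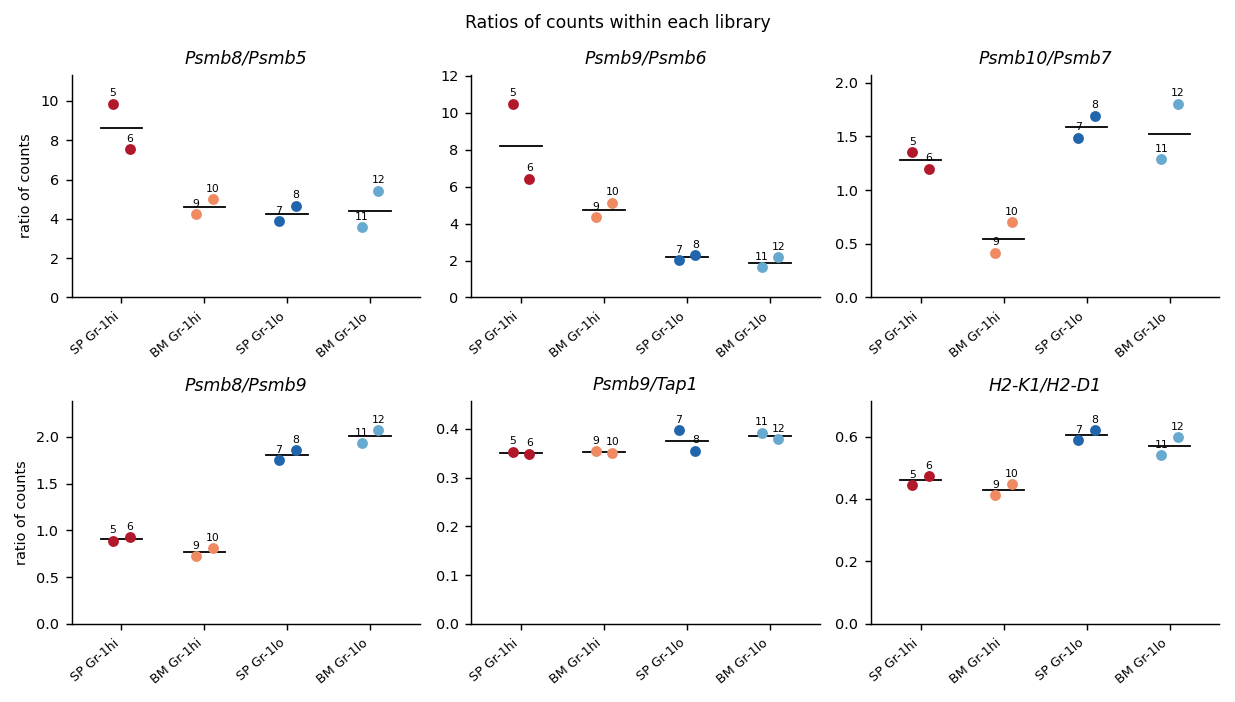
Ratio of the counts of 2 genes within each library (points, with the library number; bars, geometric mean of the 2 libraries; linear axes from 0). Psmb9 over Tap1 stays between 0.349 and 0.398, Psmb8 over Psmb9 is below 1 in Gr-1hi and above 1 in Gr-1lo libraries, and Psmb8 over Psmb5 is highest in SP Gr-1hi.

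The size of the subset difference depended on how libraries were scaled. A few genes took a larger share of the Gr-1hi libraries (the 10 highest genes held 9.14 to 14.4% of counts, against 5.30 to 5.91% in Gr-1lo). The TMM factors were 0.724 to 0.863 in Gr-1hi and 1.26 to 1.30 in Gr-1lo. The part of that share in the factors was not tested. Scaling by total counts alone, added after the data were seen, shifted the median of all genes by -0.81 in BM and -0.60 in SP, and the share of higher genes among all that passed went from 45.6 to 25.2% in BM and from 47.0 to 27.7% in SP. Under it 3 members passed in BM (H2-D1 and H2-K1 higher, Psmb8 lower) and 6 in SP (H2-D1, H2-K1, H2-T23, Tap2 and B2m higher, Psmb8 lower), the median log2 FC of the 10 was 0.0075 in BM and 0.43 in SP, and the log2 FC in BM turned to -0.25 for Tap1, -0.43 for Tapbp, -0.37 for Psmb9 and -0.09 for Nlrc5. Of all 17650 genes tested, 13644 passed with total counts alone in BM (3443 higher) and 12928 in SP (3580 higher). RLE scaling, which shifted the median by 0.15 and 0.13, gave 9 higher and 1 lower in BM and 9 higher in SP. With RLE scaling, 13360 of the 17650 genes passed in BM (6609 higher) and 12665 in SP (6527 higher). H2-D1 and H2-K1 were higher in both tissues under all 4 scalings.

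**Figure D4:**
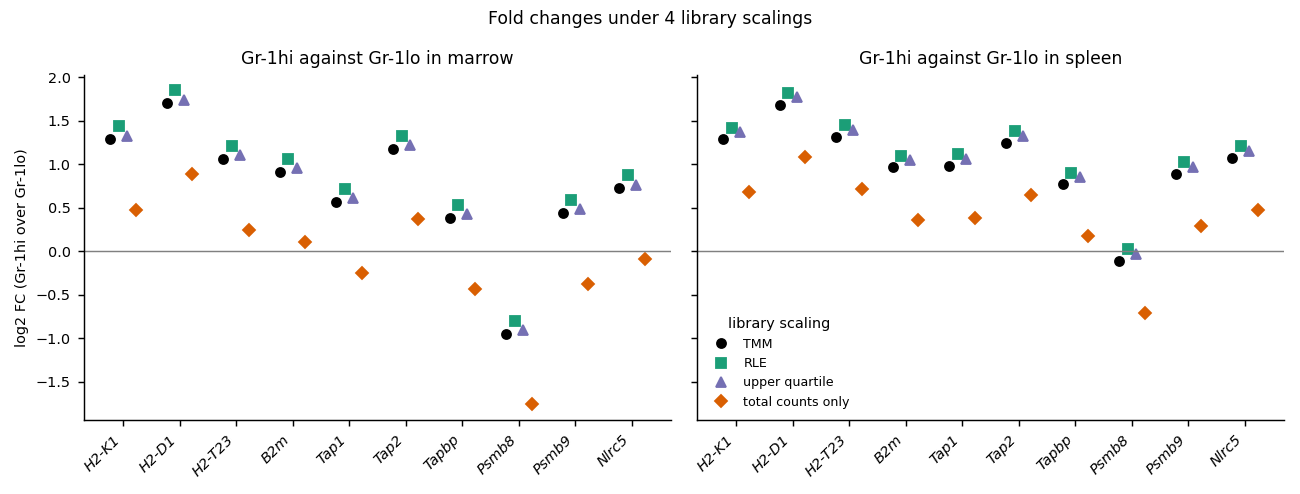
Log2 FC of Gr-1hi over Gr-1lo for the 10 genes under 4 library scalings, in BM (left) and SP (right). H2-D1 and H2-K1 stay above 0 under each scaling, and with total counts alone Tap1, Tapbp, Psmb9 and Nlrc5 fall below 0 in BM.

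Without libraries 5 and 7, H2-D1, H2-K1, H2-T23, B2m and Tap2 were higher in Gr-1hi cells in both tissues and no other member passed. Most of all genes tested passed in that fit too, in either tissue. Each SP group then has 1 library, whose spread is taken from the other groups, so no count of members is read from it. Leaving out library 5 alone also left fewer members called in SP than the 9 of the main fit. In BM, Psmb8 was no longer called without library 9 and in a fit of the 4 BM libraries alone, and the call of Nlrc5 was lost without any 1 of libraries 5, 6, 7, 8, 10, 11 and 12.

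The second question was whether cells of the spleen differ from their BM counterparts. In Gr-1lo cells 0 of 10 genes passed (0 also at an unadjusted p below 0.05, and 0 by DESeq2), where 5.58% of all genes did. An unadjusted p below 0.05 was found for 3545 of all 17650 genes tested. The log2 FCs ran from -0.19 for Psmb8 to 0.35 for Nlrc5, with a median of 0.14 against -0.01 over all genes. The median was -0.08 without library 11 and 0.38 without library 12. The 95% intervals reached at most 0.95 (Nlrc5) and -0.77 (Psmb8). B2m and Nlrc5 were higher in both SP libraries than in both BM libraries, as were 27.1% of all genes, and the other 8 overlapped.

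In Gr-1hi cells all 10 genes were higher in both SP libraries than in both BM libraries, as were 35.9% of all genes, but 0 of 10 passed after adjustment, where 34% of all genes did (20.1% higher). At an unadjusted p below 0.05 there were 4 (H2-T23, Tapbp, Psmb8 and Nlrc5), against 8015 of all 17650 genes tested. The largest log2 FCs were those of Nlrc5 (0.69 ± 0.26, 95% interval 0.09 to 1.29, adjusted p = 0.0740), Psmb8 (0.65 ± 0.25, adjusted p = 0.0824) and Tapbp (0.53 ± 0.18, adjusted p = 0.0569). The smallest was that of H2-D1 (0.12 ± 0.12, adjusted p = 0.472). The median over the 10 was 0.41, against 0.03 over all genes. It fell to 0.17 without library 5 and to 0.15 without library 9, and with any 1 library left out the log2 FC ranged from 0.27 to 1.05 for Nlrc5, from 0.32 to 0.86 for Psmb8 and from 0.30 to 0.61 for Tapbp.

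This count moved with the settings: 7 passed with total counts alone, 6 without the filter on low counts, 3 by an exact test on quantile-normalized TPM, 2 with upper-quartile scaling, 1 by DESeq2 and 0 with RLE scaling or without libraries 5 and 7. Over all genes, 5915 of 17650 passed with total counts alone, 6440 of 34018 without the filter and 1259 of 11897 by the exact test. With upper-quartile scaling 5839 of 17650 passed, by DESeq2 6828 and with RLE scaling 6726. Other cells' transcripts moved with the comparison. The summed level of 10 B cell markers was 360 to 537 CPM in SP Gr-1hi and 16.3 to 19.9 in BM Gr-1hi (66.7 to 83.8 in SP Gr-1lo and 8.07 to 9.90 in BM Gr-1lo), and all 10 were higher in SP Gr-1hi than in BM Gr-1hi. Cd22 and Cd79a were among the 3 highest of the list, and Cr2 was at 0 in some library.

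Of the T cell markers, led by Trbc2, Lck and Trac, 11 of 12 were higher in SP Gr-1hi than in BM Gr-1hi, with sums of 97.0 to 154 against 7.97 to 11.2 CPM. The same held for 6 of 6 plasma cell markers tested (101 to 172 against 12.4 to 13.8 CPM, Tnfrsf17 at 0 in some library), 7 of 8 NK cell (16.0 to 23.99 against 3.39 to 4.37, Ncr1 and Prf1 at 0 in some), 4 of 7 dendritic cell (21.8 to 26.4 against 6.27 to 6.54, Zbtb46, Xcr1 and Ccr7 at 0 in some), 7 of 9 splenic macrophage (798 to 947 against 502 to 553, Timd4 at 0 in some) and 6 of 7 erythroid markers (218 to 735 against 35.9 to 44.1, Klf1 among those at 0 in some). Most of the macrophage sums came from Slc40a1, with means of 751 CPM in SP Gr-1hi and 480 in BM Gr-1hi. The 10 neutrophil markers went down from BM to SP for 6 genes in Gr-1hi cells. In Gr-1lo cells the lists of other cells were higher in SP too, and 0 of their genes were lower. The numbers were 9 of 10 B cell, 12 of 12 T cell, 4 of 6 plasma cell and 3 of 8 NK cell markers. They were 3 of 7 for dendritic cell, 6 of 9 for splenic macrophage and 7 of 7 for erythroid markers. Of the 10 neutrophil markers, 5 were higher in SP Gr-1lo. The part of these cells in the class I values was not tested.

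A difference between the tissues in the subset effect was tested as an interaction. It passed for 0 of 10 genes (also 0 by DESeq2), where 16.4% of all genes did. At an unadjusted p below 0.05 there was 1, Psmb8, whose log2 FC of Gr-1hi over Gr-1lo was higher in SP by 0.84 (95% interval 0.01 to 1.67, adjusted p = 0.149). Over all genes that unadjusted threshold was met by 5703 of 17650. For H2-K1 and H2-D1 the interaction was 0.00 and -0.01, with intervals of -0.49 to 0.50 and -0.40 to 0.37.

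Replicates of a group differed in the same direction for nearly all members. All 10 genes were higher in library 5 than in 6 (median log2 difference 0.28), in 8 than in 7 (0.17) and in 12 than in 11 (0.49), and 9 of 10, all but H2-D1, were higher in 10 than in 9 (0.29). Over all genes tested these shares were 50.3, 50, 56.2 and 52.8%. The widest gap of a pair was that of Nlrc5 between libraries 10 and 9, at 0.81. The 10 genes are therefore not independent measurements.

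As a description over the 8 libraries, each gene's log2(CPM + 0.5) was set beside the mean of the other 9 (as z-scores). Pearson's r was 0.88 to 0.99 for 9 genes, lowest for H2-D1 and highest for Tap1, and -0.26 for Psmb8. Among 8587 genes with a mean of at least 10 CPM outside the 10, the 5 most like the mean of the members included Igtp (0.998), Irf1 (0.995) and Samhd1 (0.987). Igtp is an interferon-inducible GTPase, Irf1 is a transcription factor of the interferon response, and Samhd1 degrades deoxynucleotides. Igtp overlaps Irgm2. These points share libraries and scaling and fall into 2 subsets.

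Irf1 was at 1271 and 1058 CPM in SP Gr-1hi, 477 and 781 in BM Gr-1hi, 274 and 359 in SP Gr-1lo, and 203 and 330 in BM Gr-1lo. Within pairs it was higher in 5 than 6, 10 than 9, 8 than 7 and 12 than 11, which its r over the same libraries already includes. Its log2 FC between subsets was 1.24 ± 0.30 in BM and 1.88 ± 0.31 in SP, and with total counts alone that in BM was 0.43 and no longer passed (adjusted p = 0.195 by edgeR). Between tissues it did not pass in Gr-1hi (log2 FC 0.89, adjusted p = 0.0571), but did with upper-quartile scaling (0.97, adjusted p = 0.0339) and with total counts alone (1.10, adjusted p = 0.0214).

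The rest of the pathway was read from lists. Of 16 other class I and class I-like heavy chains, 15 were tested, and 9 were higher and 5 lower in Gr-1hi than Gr-1lo in BM (10 and 4 in SP). The higher genes were H2-Q and H2-T genes, and H2-M2 in SP. The lower genes in both tissues were Mr1, Fcgrt, Hfe and Cd1d1, which present vitamin metabolites, carry IgG, bind the transferrin receptor and present lipids. Outside the rule for named genes and chosen after its values were seen, H2-Q10 was at 590 and 506 CPM in SP Gr-1hi, 465 and 301 in BM Gr-1hi, 12.6 and 16.1 in SP Gr-1lo, and 8.67 and 11.7 in BM Gr-1lo. Some H2-Q genes are close copies of each other, so the split of reads among those is uncertain.

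Between tissues 7 of the 15 were higher in SP Gr-1hi (3 without libraries 5 and 7) and 1 in SP Gr-1lo. Hfe passed in both subsets, at 9.04 and 8.07 CPM in SP Gr-1hi against 1.79 and 1.61 in BM Gr-1hi (log2 FC 2.33 ± 0.21), and at 33.4 and 31.9 CPM in SP Gr-1lo against 19.3 and 13.5 in BM Gr-1lo (log2 FC 0.99 ± 0.17). In Gr-1lo the count for this list was 0 without library 7, without library 8 and when quantile-normalized TPM were tested.

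The constitutive 20S proteasome list was lower in Gr-1hi cells for 10 of 11 genes in BM and 11 of 11 in SP, with median log2 FCs of -1.09 and -1.02. Under RLE scaling 9 and 11 were lower. Of 8 genes of peptide trimming and loading, 6 were lower in BM and 5 in SP, among them the chaperones calreticulin, calnexin and Pdia3 and the trimming peptidase Erap1, and Lnpep and Npepps were higher in both.

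Of 12 regulators of class I transcription, 8 were higher and 2 lower in Gr-1hi in BM (7 and 2 in SP), and with total counts alone 1 was higher and 5 lower (3 and 5). Ciita, the regulator of class II genes, was lower in Gr-1hi in both tissues (log2 FC -3.60 and -1.74) and higher in SP than BM Gr-1hi (3.31, adjusted p = 0.00475). Relb, an NF-kB subunit, was higher in SP in both subsets (log2 FC 1.47 ± 0.19 in Gr-1lo and 0.92 ± 0.19 in Gr-1hi). It was at 17.9 and 20.6 CPM in SP Gr-1lo against 7.60 and 6.37 in BM Gr-1lo. Between tissues 5 regulators were higher in SP Gr-1hi (2 without libraries 5 and 7) and 1 in SP Gr-1lo.

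**Figure D5:**
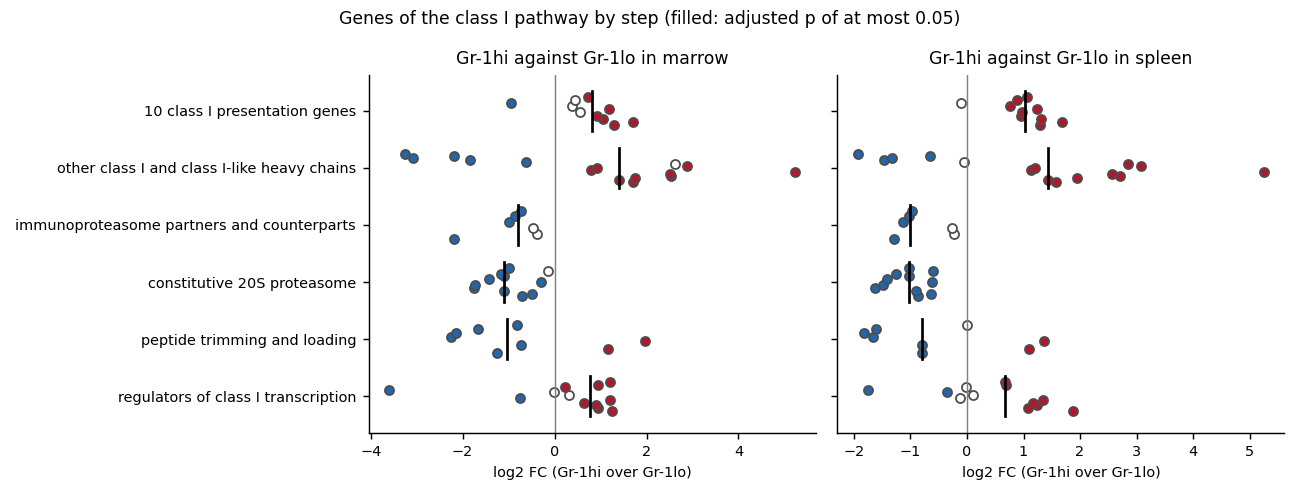
Log2 FC of Gr-1hi over Gr-1lo for the genes of each list (points; red, higher and blue, lower at an adjusted p of at most 0.05; open, not passed; bar, median of the list). The medians of the 10 genes are 0.82 in BM and 1.02 in SP, and those of the constitutive 20S proteasome -1.09 and -1.02.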

How the data were processed

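Per the labels and the study's methods, RNA from sorted cells was made into stranded mRNA libraries and read in pairs. The authors checked reads with FastQC, aligned them to GRCm38 with STAR and counted them per gene with featureCounts, and the deposited table holds these raw counts, not normalized, for 54188 genes in 8 libraries. All 8 count columns were used.

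From the counts, edgeR 4.0.16 in R 4.3.3 was run: filterByExpr by group (17650 genes kept), TMM scaling, and 1 robust quasi-likelihood fit with a term per group over all 8 libraries (4 residual degrees of freedom). P-values were Benjamini-Hochberg adjusted over the genes tested, and a gene passed at an adjusted p of at most 0.05. CPM are on TMM-scaled library sizes, and TPM use merged exon lengths of GENCODE M21. Intervals are 95% intervals of the fit and include the spread between libraries. Ratios of raw counts were compared by exact permutation within strata. The fit was tested on simulated data with 200 changed genes, drawn at random from all genes tested. At a log2 FC of 1 it recovered 97 of 195 for SP against BM in Gr-1lo and 92 of 195 in Gr-1hi. Between subsets it recovered 113 of 192 in BM and 106 of 196 in SP, and for the interaction 46 of 196. False calls numbered 5 to 11. At a log2 FC of 2 it recovered 139 to 164, with 6 to 25 false calls. In the deepest and the shallowest library, 3 counts correspond to 0.0439 and 0.0897 CPM, a limit that covers counting error only.

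The 10 members and the gene lists were chosen with earlier results of these data known. Beside the members, genes were named if they passed in both SP against BM comparisons, as proteasome counterparts, PA28 subunits, Irf1 or Ciita, as the 3 highest of a marker list, or as the 5 most like the members, and other list genes were named after their values were seen. Some genes that these rules name are not reported here. Alternatives were RLE, upper-quartile and total-count scaling, no low-count filter, fits of 4 libraries, DESeq2 1.42.0, an exact test on quantile-normalized TPM with a sum of at least 10, and leaving out libraries.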

Additional observations from a re-analysis of the deposited data

How the results depend on the processing

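No paired analysis was possible because the replicate numbers in the labels, 5 to 12, are all different and name no shared mouse. No member had fewer than 3000 counts in a library.

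Of the counts of members that passed, those for SP against BM in Gr-1lo (0) and for the interaction (0) stayed at 0 under each alternative run. For SP against BM in Gr-1hi (0) the count was 2 with upper-quartile scaling, 7 with total counts alone, 6 with no filter, 1 by DESeq2 (Nlrc5), 3 by the exact test on quantile-normalized TPM, and 0 to 2 with a library left out, Nlrc5 without library 10, and Psmb8 and Tapbp without library 11 or 12. For Gr-1hi against Gr-1lo in BM (7) it was 3 with total counts alone. With RLE scaling 9 were higher and 1 lower in BM, and with no filter 8 and 1. With upper-quartile scaling these were 7 and 1, and in a fit of the 4 BM libraries 5 and 0. Over all genes, 13360 of 17650 passed with RLE scaling and 13767 of 34018 with no filter. With upper-quartile scaling 13343 of 17650 passed, and in that fit 12932 of 16203. The BM count also moved with a library left out. In SP (9) it was lower without libraries 5 and 7, and without library 5 alone, when Tap1, Psmb9 and Nlrc5 no longer passed. The cause was not tested. The ratio differences kept their direction throughout.

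Log2 FCs that changed sign, none of them past the threshold in the new direction, were as follows. For SP against BM in Gr-1lo these were H2-D1 by the exact test (-0.011), Tap1 with RLE scaling or DESeq2 (-0.049) and by the exact test (-0.0088), and Psmb9 with upper-quartile scaling (0.012), no filter (0.017) and without libraries 5 and 7 (0.018). With a library left out they ranged from -0.01 to 0.30 for H2-D1, -0.073 to 0.41 for H2-T23, -0.27 to 0.35 for Tap1, -0.13 to 0.46 for Tap2, -0.088 to 0.41 for Tapbp, -0.48 to 0.19 for Psmb8 and -0.28 to 0.29 for Psmb9. In Gr-1hi, H2-D1 ranged from -0.040 to 0.12, lowest without library 5.

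Between subsets in BM, total counts alone gave -0.25 for Tap1, -0.43 for Tapbp, -0.37 for Psmb9 and -0.086 for Nlrc5, and the exact test -0.068 for Tapbp. In SP, Psmb8 was at 0.024 with RLE scaling and 0.025 by DESeq2. For the interaction, H2-D1 was at 0.026 with upper-quartile scaling and 0.20 with total counts alone, and B2m and Tap2 were at -0.046 and -0.051 without libraries 5 and 7. With a library left out the interaction ranged from -0.24 to 0.21 for H2-K1 (main value 0.00, and -0.016 with RLE scaling), -0.19 to 0.13 for H2-D1, -0.0048 to 0.47 for H2-T23, -0.15 to 0.16 for B2m, -0.26 to 0.33 for Tap2 and -0.093 to 0.69 for Nlrc5.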
